A study of Saccharomyces cerevisiae with 12 samples.

Results

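The small (40S) subunit of the yeast cytosolic ribosome is built on the 18S ribosomal RNA from proteins that budding yeast encodes in the RPS genes, many of them present as an A and a B copy left by an ancient genome duplication. The group described here is these 56 RPS genes, from RPS0A to RPS31, chosen by their systematic identifiers among the 6571 genes of the deposited table, and all 56 were found there. They encode 32 proteins, 8 from a single-copy gene and 24 from an A and a B copy.

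RNA was sequenced from Saccharomyces cerevisiae with the genotype label tSH2delta (tSH2Δ, 3 libraries), an SPT6 allele that lacks the tandem SH2 domain, and from cells with wild-type SPT6 (WT, 3 libraries). The strain label of both is S288C, the haploid laboratory strain of the reference genome, and both were grown untreated in YPD, a rich glucose medium, for 4 h after dilution. Spt6 is a histone-binding elongation factor, its tandem SH2 domain binds transcribing RNA polymerase II, and the study asked about its part in mRNA stability. Libraries held 20483931 to 27069700 reads, of which 84.6% to 87.6% lay in genes. A 40S gene drew between 326 and 51492 reads in a library.

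As background, 40S genes are transcribed by RNA polymerase II at high rates in growing cells under Rap1, Fhl1, Ifh1 and Sfp1, and their RNA drops when growth signals through the TOR kinases weaken. Their mRNAs are among the most abundant in the cell, many carry an intron, and the proteins are needed in equal numbers because each sits once in the subunit. Several RPS genes also control their own RNA, by splicing or by decay.

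Values are RPKM (reads per kilobase of coding length, scaled to library depth) rescaled so that the median gene stands at the same level in every library. A gene is called changed where limma, fitted across the 6307 genes that passed a filter on low values, gave a Benjamini-Hochberg adjusted p under 0.05. All 56 members passed that filter. Fold changes are tSH2Δ over WT on the log2(rescaled RPKM + 1) scale. The rescaling bears on every value: in RPKM as deposited the median gene stood 0.57 higher in tSH2Δ on the log2 scale, and after rescaling it stood at 0.01. These values are relative to the other genes of a library, so a change in RNA per cell cannot be read from them. An RNA level also cannot tell fewer transcripts made from faster decay, nor a change in all cells from a change in some of them.

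Relative to the median gene, nearly all 40S genes were lower in tSH2Δ. Of the 56 members 54 were called lower and 0 higher, with RPS28B and RPS30A not called, where 41.9% of all genes tested were called lower and 41.6% higher. The same 54 had 3 tSH2Δ values all under the 3 WT values, as had 42.2% of all genes. A fall of at least 1 on the log2 scale was reached by 23 members, where 9.5% of all genes reached it. The median log2 fold change of the members was -0.93, with quartiles of -1.10 and -0.76, against 0.01 over all genes tested. No member was higher at an unadjusted limma p under 0.05 either (0 of 56), and voom, run on the reads, also called 0 higher. The only positive fold change was that of RPS28B, with a limma adjusted p = 0.292.

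**Figure D1:**
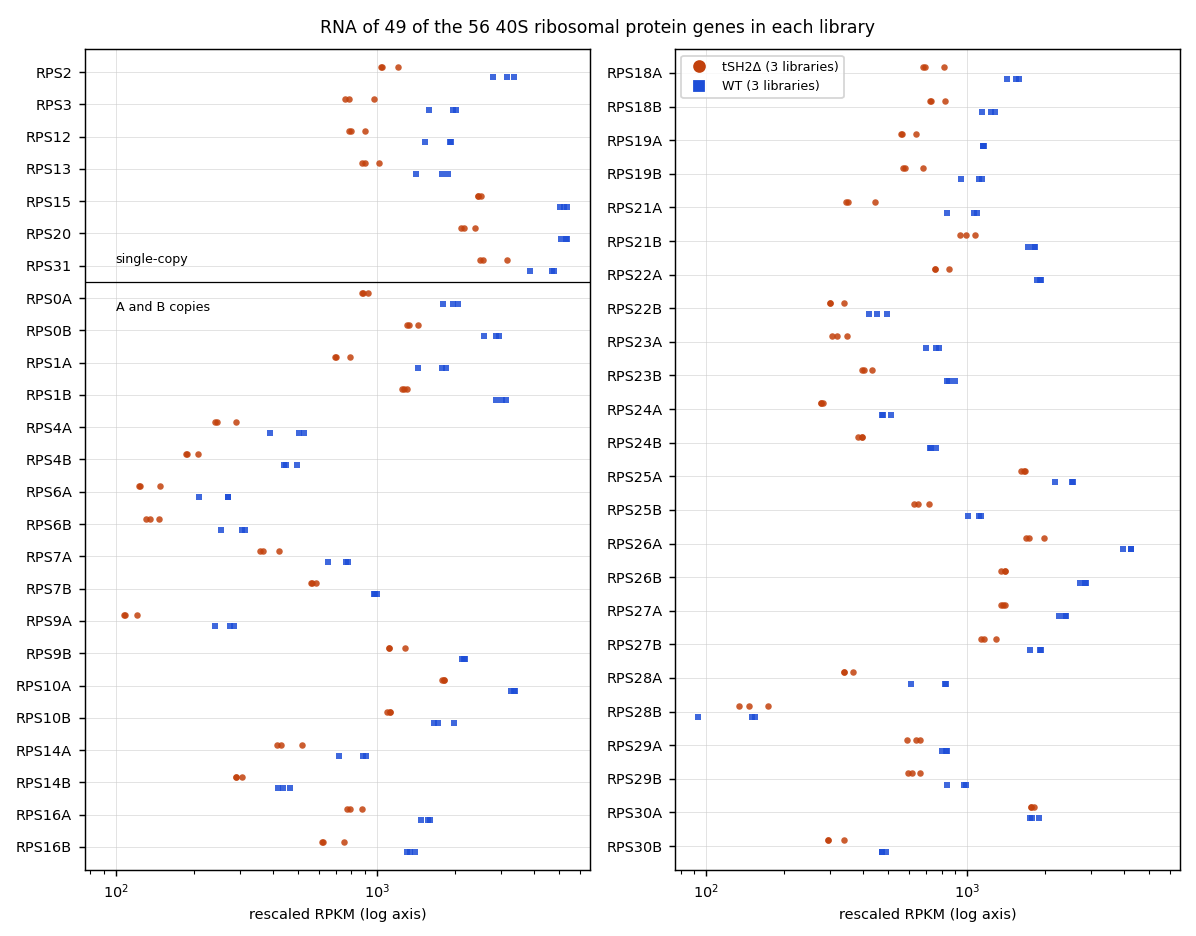
Rescaled RPKM (log axis) of 49 of the 56 genes, one row per gene, with the single-copy genes at the top left. Circles are the 3 tSH2Δ libraries and squares the 3 WT libraries. In 47 rows every circle lies left of every square, and the exceptions are RPS28B and RPS30A.

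In each library the 56 genes made up a visible part of the RNA. Their share of the summed RPKM was 6.71%, 6.70% and 7.17% in tSH2Δ replicates 1 to 3, against 9.06%, 9.07% and 8.65% in WT. The strains did not overlap, and this share does not depend on the rescaling. Replicate 3 stood apart in both strains and lay nearer to the other strain each time. In tSH2Δ it had the highest value of the 3 libraries for 52 of the 56 members, and in WT the lowest for 47. Without tSH2Δ replicate 3 the median log2 fold change of the members was -1.001, and without WT replicate 3 it was -1.005, with 54 members called lower in both cases.

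How far the group fell depends on what the libraries are scaled to. In RPKM as deposited 43 members were called lower and 3 higher, where 17.3% of all genes were called lower and 72.4% higher, and the members' median was -0.35. With scaling to the total RPKM outside the ribosomal protein genes 48 were lower and 2 higher (all genes: 20.8% lower, 67.5% higher), with a median of -0.46. After quantile normalization, which gives every library the same distribution of values, 22 were lower and 16 higher (all genes: 41.1% lower, 40% higher) and the median was -0.092. The median of the group was thus under 0 throughout, but its size varied. After quantile normalization it lay close to that of all genes (-0.013), and 20 members had changed sign, not all of them called. A size factor moves all members nearly alike and so hardly touches the differences between them, while quantile normalization changes these too.

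A fall of this size was common among abundant RNAs. Setting the 40S and 60S ribosomal protein genes aside, 71 genes had a level at or above 931.0 rescaled RPKM, the median level of the members. Of these 71, 63 were called lower and 6 higher, and their median was -1.13. At or above 141.8 rescaled RPKM, the level of the lowest member, there were 989 such genes, 788 of them lower and 126 higher, and their median was -0.65. The median of -0.93 of the 56 members lay between these values, a comparison added after the values were seen. Among the 56 members themselves, level and fold change were hardly related (Pearson r = -0.18, Spearman rho = -0.12, n = 56 genes that share the same 6 libraries).

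**Figure D2:**
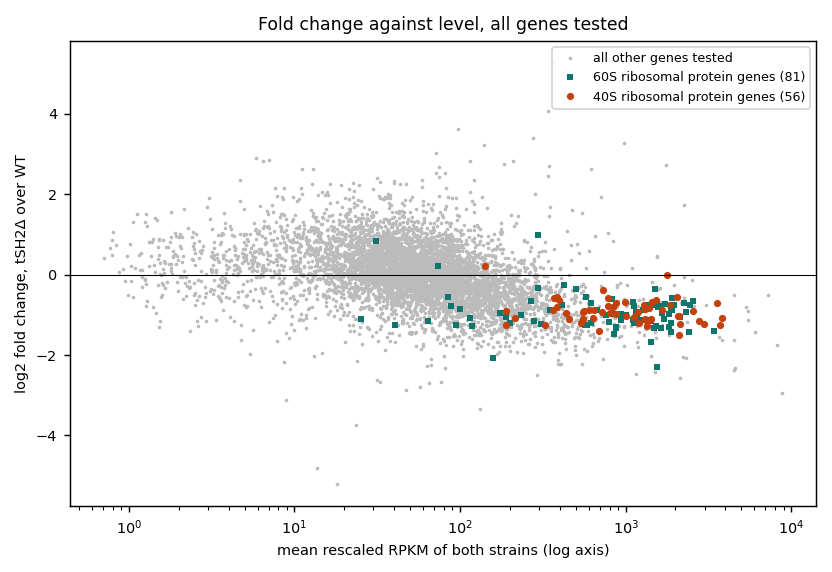
Log2 fold change (tSH2Δ over WT) against the mean rescaled RPKM of both strains (log axis) for every gene tested. Orange circles are the 56 40S genes and green squares the 81 60S genes. The 40S genes, at 141.8 to 3836 rescaled RPKM, lie in the lower right, among other abundant genes that are also below the line at 0.

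SPT6, the gene that carries the allele, was looked at beside the labels. A lower level of its RNA cannot identify the strain, since 9.5% of all genes were called lower by at least 1 on the log2 scale. SPT6 had 85.4, 83.8 and 84.3 rescaled RPKM in tSH2Δ libraries, against 173.7, 181.6 and 184.9 in WT libraries. Its log2 fold change was -1.08, or -0.50 in RPKM as deposited. The RPKM averages over the whole gene, including the part the allele lacks, and so does not measure the rest of the transcript alone.

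All 8 single-copy genes were called lower (median -1.12), where 41.9% of all genes tested were. RPS2 (YGL123W, chromosome VII, 277617 to 278381, sacCer3), whose protein lines the channel through which mRNA enters the subunit, fell furthest of all 56 members. Its rescaled RPKM was 1044, 1034 and 1207 in tSH2Δ, against 3359, 3152 and 2796 in WT. Its log2 fold change was -1.50 (SE of 0.0931, limma adjusted p = 1.00e-06), and the highest tSH2Δ value was well under the lowest WT value. RPS3 (YNL178W, chromosome XIV), next to Rps2 at the entry channel, had 757.4, 785.6 and 976.1 in tSH2Δ and 2014, 1954 and 1592 in WT, a log2 fold change of -1.14. Both lack an intron.

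RPS20 (YHL015W, chromosome VIII) encodes a head protein that the ligase Hel2 marks with ubiquitin when ribosomes collide, and it was the most abundant member in WT. It had 2151, 2111 and 2381 rescaled RPKM in tSH2Δ, against 5369, 5326 and 5077 in WT, and changed by -1.25 on the log2 scale (SE 0.0829). RPS15 (YOL040C, chromosome XV), a head protein at the decoding site, was almost as abundant, with 2515, 2442 and 2445 in tSH2Δ and 5230, 5351 and 5033 in WT. Its log2 fold change was -1.08, and its libraries agreed closely within each strain. RPS12 (YOR369C, chromosome XV), a protein of the head, had 794.1, 785.3 and 903.2 in tSH2Δ and 1920, 1902 and 1527 in WT, and changed by -1.10. These values again leave a wide gap between the strains, with replicate 3 nearest to it for RPS12.

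The other single-copy genes fell least of the 8. RPS13 (YDR064W, chromosome IV), whose protein touches the large subunit, is the only single-copy member with an intron. It had 905.7, 878.8 and 1022 rescaled RPKM in tSH2Δ and 1782, 1868 and 1415 in WT, a log2 fold change of -0.84. RPS31 (YLR167W, chromosome XII) encodes its protein fused to ubiquitin, which is cut off after translation, so this mRNA also supplies ubiquitin. It had 2477, 2543 and 3153 in tSH2Δ, against 4762, 4679 and 3870 in WT, and the log2 fold change was -0.71 with an SE of 0.126 (limma adjusted p = 0.000782). In RPKM as deposited its strains overlapped and it was not called (log2 fold change -0.12, limma adjusted p = 0.303).

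The 48 genes with a second copy fell somewhat less than the single-copy genes, as a description without a test. Of these 48, 46 were called lower, where 41.9% of all genes tested were. The median log2 fold change of the 48 was -0.91, against -1.12 for the single-copy genes. After quantile normalization this gap closed, with medians of -0.092 and -0.10. The 24 A copies had a median of -0.94 and the 24 B copies of -0.86, with 23 of each called lower. Of the 8 single-copy genes 6 lay under the median of the duplicated genes. The distributions overlap, since RPS21A and RPS22A, for example, fell further than every single-copy gene except RPS2. Among the 60S genes the order was the other way round, with a median of -0.78 for the 11 single-copy genes and -0.998 for the 70 with a related copy. Introns are unevenly spread over this comparison, being present in 35 of the 48 duplicated genes and in 1 of the 8 single-copy genes. Duplicated genes without an intron had a median of -1.02 (13 genes) and those with an intron -0.90 (35 genes). The single-copy genes without an intron stood at -1.14 (7 genes). Copy number and introns cannot be told apart in so few genes.

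**Figure D3:**
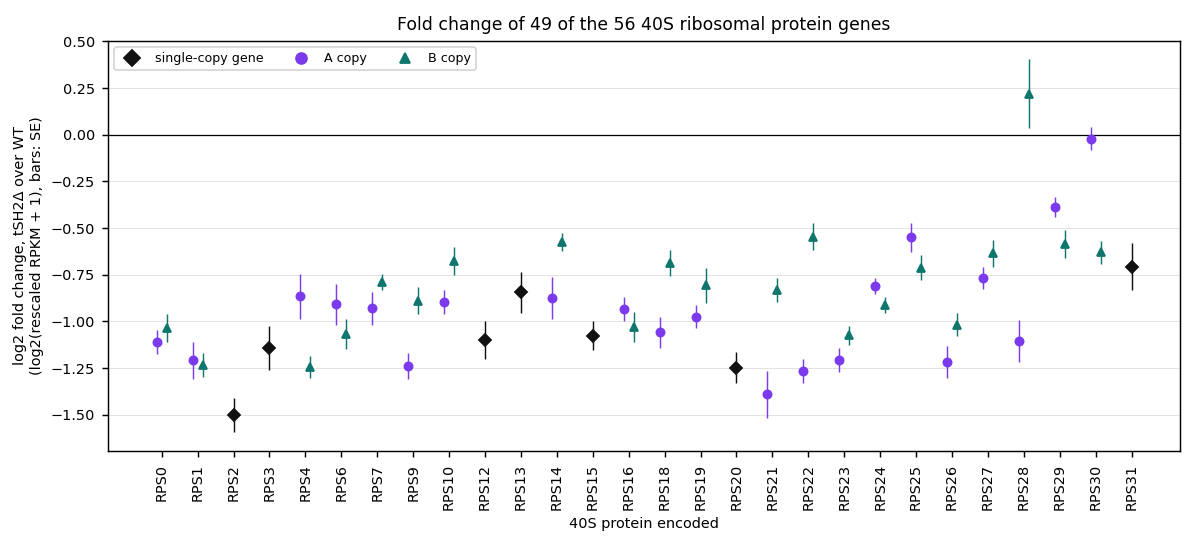
Log2 fold change (tSH2Δ over WT) with its SE for 49 of the 56 genes, ordered by the protein encoded. Diamonds are single-copy genes, circles A copies and triangles B copies. Most pairs lie close together between -1.25 and -0.5, while RPS28, RPS22, RPS30 and RPS21 have copies far apart.

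Paralogs were compared within each pair by the share of the A copy in the summed RPKM of A and B, which a single size factor per library leaves unchanged. Quantile normalization is not of that kind and does move the balance within pairs. The share did not overlap between strains in 17 of 24 pairs, being lower in tSH2Δ in 11 and higher in 6. With 3 against 3 libraries a permutation of a single pair could not give a p under 0.1, so no p is given. Among 33 pairs of 60S genes counted in the same way, 24 did not overlap. Lack of overlap was also common for single genes: of 6307 tested, 2663 were lower and 2678 higher in tSH2Δ without overlap of rescaled RPKM. The rate for pairs of unrelated genes was not computed. Shifts were mostly small: the median absolute difference between the log2 fold changes of A and B was 0.165, it was under 0.2 in 15 pairs, and it was over 0.5 in 4. For the 60S pairs the median was 0.252, with 6 pairs over 0.5. The copy with more RNA fell further in 14 pairs and the copy with less RNA in 10.

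RPS28 had the widest gap between copies. Rps28 is a small protein near the mRNA exit, and RPS28B is known in yeast for a loop in which the protein, with the decapping enhancer Edc3, drives decay of the RPS28B mRNA through its 3' untranslated region. The A copy made up 71.6%, 69.7% and 67.8% of the pair in tSH2Δ, against 84.4%, 84.6% and 86.8% in WT, with no overlap. RPS28A (YOR167C, chromosome XV, 648804 to 649007) had 337.1, 336.8 and 365.9 rescaled RPKM in tSH2Δ and 830.2, 823.7 and 610.5 in WT, and the log2 fold change was -1.11 with an SE of 0.113 (limma adjusted p = 2.23e-05). RPS28B (YLR264W, chromosome XII, 673131 to 673334) had 134.0, 146.4 and 173.5 in tSH2Δ and 153.5, 150.1 and 93.2 in WT. These values overlap, and the log2 fold change of 0.22 (SE 0.184) did not pass the test. The difference between the copies, A minus B, was -1.33 (SE 0.216). This SE, like those given for the other pairs, takes the copies as independent, though both were measured in the same libraries. WT replicate 3 weighs on RPS28B, whose log2 fold change without it was -0.01. In RPKM as deposited RPS28B was called higher, at 0.80 (limma adjusted p = 0.002).

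RPS22, a protein of the body, followed. RPS22A (YJL190C, chromosome X, 74910 to 75302) has no intron within its coding region and RPS22B (YLR367W, chromosome XII, 856442 to 857317) has one, and the span of RPS22B also holds the small nucleolar RNA gene SNR44. The A share was 71.7%, 71.7% and 71.6% in tSH2Δ, against 82.0%, 80.4% and 79.5% in WT. RPS22A had 756.5, 754.0 and 850.1 rescaled RPKM in tSH2Δ and 1911, 1849 and 1914 in WT, a log2 fold change of -1.27 (SE 0.0631). For RPS22B the values were 298.3, 298.1 and 337.5 in tSH2Δ and 420.1, 451.2 and 494.8 in WT, a log2 fold change of -0.55 (SE 0.0722). Both were called lower with groups that did not overlap, and the difference between them was -0.72 (SE 0.0959). In RPKM as deposited RPS22B stood at 0.04 and was not called.

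RPS30 differed the other way, with the B copy called lower and the A copy not called. Rps30 is a small basic protein at the mRNA entry channel beside Rps2 and Rps3. The A share was 85.7%, 85.7% and 84.1% in tSH2Δ, against 79.0%, 78.1% and 80.0% in WT, with no overlap. RPS30A (YLR287C-A, chromosome XII, 712537 to 713158) had 1766, 1760 and 1802 rescaled RPKM in tSH2Δ and 1780, 1739 and 1888 in WT. Its log2 fold change was -0.02 (SE 0.0605, limma adjusted p = 0.761), and the strains overlapped. RPS30B (YOR182C, chromosome XV) had 294.4, 293.8 and 339.5 in tSH2Δ and 474.6, 488.9 and 471.7 in WT, a log2 fold change of -0.63. The difference between the copies was 0.61 (SE 0.0854). Summed over both copies, RPS30 RNA changed by -0.13, the smallest change among the 24 pairs on this scale, whose sums had a median of -0.91 and a lowest value of -1.23. The direction turned in RPKM as deposited, with a mean sum of 2556 in tSH2Δ and 1867 in WT, and RPS30 was then not the pair with the smallest change.

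RPS21, a small protein that binds Rps0 on the body, had the remaining wide gap, and its A copy is one of 2 members on chromosome XI. RPS21A (YKR057W, chromosome XI, 551657 to 552242) had 343.7, 350.3 and 445.1 rescaled RPKM in tSH2Δ and 1065, 1093 and 836.5 in WT, and the log2 fold change was -1.39 with an SE of 0.127 (limma adjusted p = 1.11e-05). RPS21B (YJL136C, chromosome X) had 988.7, 943.7 and 1076 in tSH2Δ and 1822, 1812 and 1717 in WT and changed by -0.83. The A share was 25.8%, 27.1% and 29.3% in tSH2Δ, against 36.9%, 37.6% and 32.8% in WT. Genes of chromosome XI were lower as a whole in tSH2Δ: the median log2 fold change was -0.79 over 106 other genes of its right arm, where RPS21A lies, and -0.89 over 234 other genes of its left arm. The part of this in the fall of RPS21A and RPS27A was not tested.

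RPS27A (YKL156W) is the member on the left arm of chromosome XI. It had 1374, 1349 and 1398 rescaled RPKM in tSH2Δ and 2367, 2394 and 2256 in WT, a log2 fold change of -0.77, while RPS27B (YHR021C, chromosome VIII) changed by -0.63. The difference of -0.13 between these copies had an SE of 0.0939, which takes the copies as independent. The mean A share was a little lower in tSH2Δ (53.5%) than in WT (55.7%), without overlap of the strains. Without the 2 members on chromosome XI, 52 of 54 were called lower (all genes: 41.9%) and the median was -0.93.

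**Figure D4:**
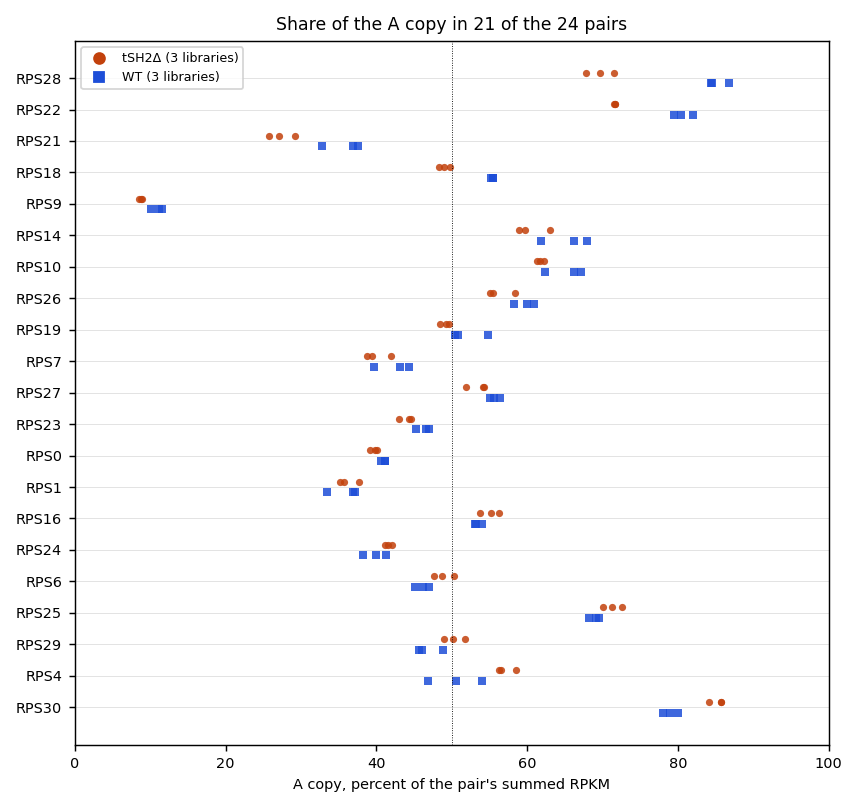
Share of the A copy in the summed RPKM of a pair (percent) for 21 of the 24 pairs, with circles for the 3 tSH2Δ libraries above squares for the 3 WT libraries. Pairs run from the one whose A copy fell furthest relative to B (RPS28, top) to the one whose A copy fell least (RPS30, bottom). The widest shift was that of RPS28, -15.5 percentage points, and in 6 of the pairs drawn the strains overlap.

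RPS1 was among the most even pairs. RPS1A (YLR441C, chromosome XII) and RPS1B (YML063W, chromosome XIII), which encode a platform protein, fell by 1.21 and 1.23. RPS1A had 696.1, 690.5 and 792.7 in tSH2Δ and 1841, 1780 and 1442 in WT, and RPS1B 1251, 1270 and 1312 in tSH2Δ and 3142, 3015 and 2869 in WT. For RPS1 the difference between copies was 0.02 (SE 0.12), which would still allow gaps of a size seen in several other pairs.

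Several of the other pairs moved their balance without overlap of the strains. The A copy lost share in RPS18 (49.0% ± 0.729 in tSH2Δ, 55.4% ± 0.130 in WT, SD, n = 3 each), and also in RPS9, RPS10, RPS19, RPS23, RPS27 and RPS0. It gained share in RPS4 (57.1% ± 1.2 in tSH2Δ, 50.5% ± 3.57 in WT, SD, n = 3 each), RPS29, RPS25 and RPS6. RPS9 was the least even pair, with the A copy at 8.75% ± 0.187 in tSH2Δ and 10.96% ± 0.725 in WT (SD, n = 3 each). RPS14, whose protein represses splicing of the RPS14B transcript in yeast, had overlapping shares, with 60.6% ± 2.18 in tSH2Δ and 65.4% ± 3.13 in WT (SD, n = 3 each). RPS14B had 290.0, 290.0 and 304.0 rescaled RPKM in tSH2Δ and 464.4, 417.4 and 439.2 in WT, and its log2 fold change was -0.58, or 0.0046 in RPKM as deposited. Shares also overlapped in RPS7, RPS16, RPS24 and RPS26. Where the copies are nearly identical, these shares rest on how reads matching both were counted, which the sources used here do not give.

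RPS25 and RPS29 also stood among the members that fell least. RPS25A (YGR027C), one of the genes for a non-essential head protein, changed by -0.55 and RPS25B by -0.71. RPS29A (YLR388W), for a zinc-binding head protein, changed by -0.39, with 636.0, 590.9 and 663.3 rescaled RPKM in tSH2Δ and 834.3, 835.1 and 801.7 in WT. It was called higher in RPKM as deposited, at 0.19, as were RPS30A at 0.56 and RPS28B, and these are the 3 members called higher on that scale. RPS29B changed by -0.58.

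By place in the subunit, the groups differed little on the rescaled values, but not under every scaling. Of 22 genes for head proteins 21 were called lower (median -0.89), and of 34 for body and platform proteins 33 (median -0.95), where 41.9% of all genes were. Of the head genes 14 of 22, and of the body genes 29 of 34, were lower in RPKM as deposited (all genes: 17.3% lower, 72.4% higher). After quantile normalization 6 head genes were lower and 10 higher (median 0.039), and 16 body genes were lower and 6 higher (median -0.16). Of all genes 41.1% were then lower and 40% higher, and the difference by place was not tested. On the rescaled values both groups held one of the uncalled genes, RPS28B in the head and RPS30A in the body.

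The proteins are needed in equal numbers, but the RNA levels per protein were not equal in either strain. In tSH2Δ the single-copy genes ranged from 827.6 to 2724 rescaled RPKM with a median of 1413, and the pair sums from 268.7 to 3176 with a median of 1267. In WT the single-copy genes ranged from 1688 to 5257 with a median of 3457, and the pair sums from 538 to 6961 with a median of 2314. The highest of the 32 levels was 11.8 times the lowest in tSH2Δ and 12.9 times in WT. RPS26 had the highest sum and RPS6, a target of TOR signalling, the lowest in both strains. The SD of the log2 levels over the 32 proteins was 0.867 in tSH2Δ and 0.866 in WT, so the spread was of like size in the strains. Levels of pairs depend on the counting of shared reads noted above.

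In the authors' deposited table, which holds genes with a log2 ratio of mean RPKM plus 1 of at least 0.50 in size and a DESeq2 adjusted p of at most 0.0495, 14 of the 56 genes are listed, all lower. The authors' deposited table lists 2890 genes in all, 485 lower and 2405 higher. The authors' deposited table gives the lowest ratio to RPS2, at -0.92, followed by RPS21A at -0.81. It lists neither RPS28B nor RPS30A. Both lie above 0.50 in RPKM as deposited, but neither was called on the rescaled values (limma adjusted p = 0.292 and 0.761). Why they are absent was not tested. Of the 14 listed genes 5 are single-copy genes.

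Among the 81 genes of 60S proteins the median was -0.99, with 78 called lower and 3 higher (all genes: 41.9% lower, 41.6% higher). The furthest falls were RPL17A (-2.29) and RPL14A (-2.07), both on chromosome XI, and the largest rises RPL22B (0.98) and RPL35B (0.83). The share of the 60S genes in the summed RPKM was 8.14%, 8.15% and 8.75% in tSH2Δ, against 11.5%, 11.5% and 10.96% in WT. Both genes listed here for other proteins bound to the 40S subunit, without an RPS name, had less RNA in tSH2Δ on the rescaled values. ASC1, which encodes the scaffold protein of the head, had 477.0, 478.1 and 548.1 rescaled RPKM in tSH2Δ and 1353, 1300 and 971.1 in WT, a log2 fold change of -1.26, and STM1, which encodes a ribosome preservation factor, changed by -1.51.

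The genes of factors that assemble the 40S subunit had a median of -0.56, nearer to 0 than the -0.93 of the 40S genes. Of these 18 genes 15 were called lower, 1 higher and 2 not called (all genes: 41.9% lower, 41.6% higher). LTV1, which holds Rps3 during assembly and lies on chromosome XI, had 80.3, 77.0 and 77.7 rescaled RPKM in tSH2Δ and 266.2, 269.9 and 271.4 in WT, a log2 fold change of -1.77. RRP12, a factor for export of both subunits, changed by -1.25, and the kinase gene HRR25 by 0.11 (SE 0.0387). In RPKM as deposited the median was 0.02, with 7 of the 18 lower and 6 higher, where 17.3% of all genes were lower and 72.4% higher. The sign of the list's median thus follows the scaling, but this median lay under that of all genes both times (0.57 as deposited, 0.01 rescaled). After quantile normalization the order was turned round, with a median of -0.45 for the assembly factors and -0.092 for the 40S genes. Of the 18 assembly factors 12 were then lower, where 41.1% of all genes were.

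Genes of the factors and kinases that control ribosomal protein genes went both ways, in shares near those of all genes tested (41.9% lower, 41.6% higher). Their median was -0.36, with 6 of 11 called lower, 4 higher and 1 not called. It was 0.22 in RPKM as deposited, with 1 lower and 9 higher, where 72.4% of all genes were higher and the median gene stood at 0.57. RAP1, whose protein binds the promoters of most ribosomal protein genes, had 56.9, 56.8 and 58.7 rescaled RPKM in tSH2Δ and 100.4, 97.6 and 97.4 in WT, a log2 fold change of -0.77. ABF1, which encodes another promoter-binding factor and lies on chromosome XI, changed by -0.66. YAK1, a kinase gene acting against growth, had 80.1, 80.2 and 87.3 in tSH2Δ and 39.5, 41.0 and 38.5 in WT, a log2 fold change of 1.04. CRF1, whose protein represses ribosomal protein genes in some strains when TOR is inhibited, rose by 0.89. Fhl1 and Sfp1 genes were called higher by small amounts, 0.09 and 0.15, and IFH1 changed by -0.36. YAK1 and CRF1 had a positive and RAP1 and ABF1 a negative fold change under every scaling tried. They were named as the largest rises and falls of the list, so a steady sign is partly due to that choice. In RPKM as deposited ABF1 was not called (log2 fold change -0.084, limma adjusted p = 0.0695).

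**Figure D5:**
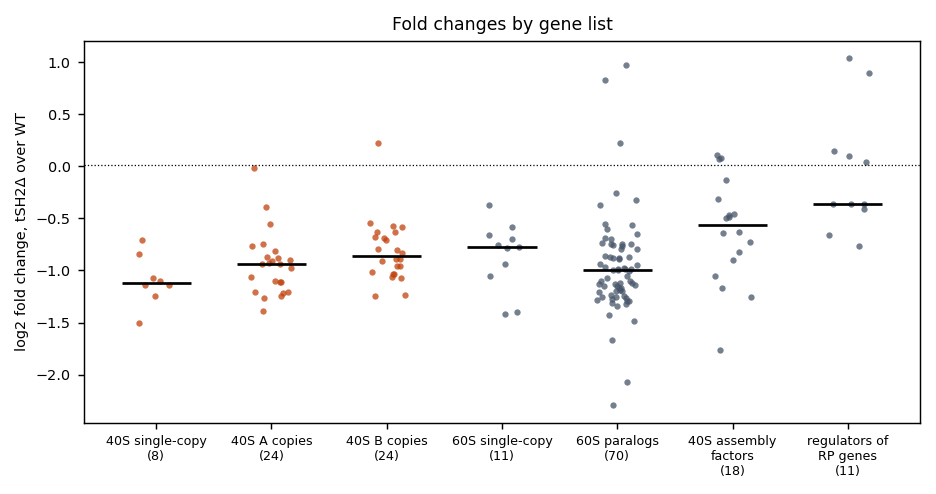
Log2 fold changes (tSH2Δ over WT) of the 40S genes by copy and of related lists, one point per gene, with the number of genes in parentheses. Bars are medians and the dotted line is the median of all genes tested (0.01). Medians were -1.12, -0.94 and -0.86 for 40S single-copy, A and B genes, and -0.36 for the regulators.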

How the data were processed

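RPKM of 6571 genes in 6 RNA libraries was deposited by the authors. Per the labels' protocols these came from rRNA-depleted, stranded, single-end sequencing of 50 bases. Per the submitters' processing notes the build was sacCer3 and the tools, with no role given, included Bowtie 1.1.2 and HTSeq 0.6.1; counting annotation, strand setting and shared reads were not given in the sources used here. Per the file headers, the authors' second table holds a log2 ratio and a DESeq2 adjusted p-value. The length column matches coding exons. RPKM times length gave whole reads for 100% of values (tolerance 0.01). A row without a gene name (0.513% to 0.926% of reads) was left out.

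RPKM was divided by median-ratio size factors (1.21 to 1.24 in tSH2Δ, 0.813 to 0.829 in WT). limma 3.58.1 (R 4.3.3, intensity trend, no block) was fitted across genes reaching 1 RPKM in 3 or more libraries, two-sided, with Benjamini-Hochberg adjustment, after a test on simulated data. List medians and pair shares have no test. Chi-square per gene between replicates was 3.11 to 18.35, so no libraries were merged. Whether replicates came from separate cultures is not in the labels, and p-values then cover only the spread between libraries, which may be technical. Members and lists were chosen with earlier results of these data known. By the rule for named genes, library values are given for single-copy genes, the 4 most and 2 least divergent pairs, the extreme members, those on chromosome XI, and up to 2 rises and 2 falls per list; others, such as RPS14B and RPS29A, were chosen after their values were seen. Some members that this rule names are counted but not reported one by one here. Gene names and spans are from RefSeq assembly R64 (5897 of 6571 matched). The 6 ATAC-seq libraries were not analysed here. Alternatives covered the pseudocount (0.1 and 5), filter, scaling, variance trend, voom on reads, a replicate block, chromosome XI, RefSeq genes alone and each library left out.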

Additional observations from a re-analysis of the deposited data

How the results depend on the processing

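Scaling was the choice that moved the results. With RPKM as deposited 1091 genes were lower and 4565 higher, and of the 40S genes 43 and 3. Medians were then -0.35 for all members, -0.54 for single-copy and -0.33 for duplicated genes. With total-sum scaling without ribosomal protein genes 1314 genes were lower and 4259 higher, with 2 members higher and medians of -0.46, -0.65 and -0.44. After quantile normalization 22 members were lower and 16 higher, with medians of -0.092, -0.10 and -0.092, so the gap between single-copy and duplicated genes closed. Quantile normalization also turned 20 members round, among them RPS7B (0.040), RPS10B (0.28), RPS13 (0.13), RPS14B (0.18), RPS15 (0.15), RPS16A (0.012), RPS18B (0.23), RPS19B (0.066), RPS21B (0.13), RPS22B (0.21), RPS25A (0.26), RPS25B (0.15), RPS27A (0.11), RPS27B (0.28), RPS29A (0.45), RPS29B (0.27), RPS30A (0.88), RPS30B (0.13) and RPS31 (0.49). With RPKM as deposited 5 turned, namely RPS14B (0.0046), RPS22B (0.035), RPS25A (0.034), RPS29A (0.19) and RPS30A (0.56), and with total-sum scaling RPS29A (0.086) and RPS30A (0.45). To turn here means a change of sign, called or not. In RPKM as deposited RPS14B, RPS22B and RPS25A were not called (limma adjusted p = 0.927, 0.648 and 0.645). RPS29A was not called with total-sum scaling, nor RPS7B, RPS13, RPS16A, RPS19B and RPS27A after quantile normalization. The cause of these turns was not tested. The share of the 40S genes in summed RPKM differed by -2.07 percentage points, and by -2.38 over RefSeq genes alone, where the total is smaller.

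The pseudocounts, filters, variance trend, voom and RefSeq settings kept the side of the threshold and the direction of all 56 members, as did omission of chromosome XI for the 54 left. Leaving out each library in turn gave 54 members lower every time, 2511 to 2599 genes lower, member medians of -1.01 to -0.90 (single-copy -1.20 to -1.08, duplicated -0.98 to -0.88), 17 to 21 pairs without overlap and a share difference of -2.22 to -1.99 points. RPS28B then ranged from -0.014 to 0.34 and RPS30A from -0.045 to 0.012, each turning without WT replicate 3. With a replicate block 54 members were lower, and 2533 genes lower and 2521 higher. Same-numbered libraries did not deviate together (correlations of -0.25, -0.09 and -0.28), and none correlated best with its own number. Low reads limit RPS28B most, at 326 reads in WT replicate 3.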
